A study of Mus musculus with 6 samples.

Results

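Nos2 and the genes grouped with it here are 9 genes of classical macrophage activation: Nos2, Il12a, Il12b, Il23a, Il27, Il10, Cd80, Cd86 and Irf5. They were chosen by name, as all non-control probes whose RefSeq accession maps to one of the 9 genes. Probes were matched for 8 of the 9, and no probe was matched to Il12b. Of these 8, 6 genes entered the test, out of 25777 genes and unnamed transcripts tested, because Il12a and Il23a stood well above background on 1 of 6 arrays each.

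Classical activation is the state macrophages take on when they meet interferon gamma together with microbial products such as lipopolysaccharide. Inducible nitric oxide synthase, the product of Nos2, then makes nitric oxide from arginine, the cells secrete cytokines of the interleukin-12 family, and CD80 and CD86 appear at the surface to costimulate T cells. IRF5 is a transcription factor that favours this state, and interleukin-10 restrains it. In obese fat, macrophages gather in the stroma, and several of these genes are widely used to describe their state.

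RNA came from the non-adipocyte cells that collagenase frees from the fat around the gut, called the stromal vascular fraction, after lysis of red cells. All animals were male C57BL/6JHamSlc-ob/ob mice, which lack functional leptin and become obese, and the labels give no age. The propolis group received Brazilian propolis ethanol extract, a bee product, by intraperitoneal injection for 12 weeks, each dose being 100 mg/kg and 2 given weekly, and the control group received a vehicle with a low concentration of DMSO and ethanol. Each group has 3 samples called biological replicates, with the number of mice in each not stated, so p-values here measure the spread between these samples. The fraction is a mixture of cells, so in these bulk samples fewer cells of a type and less RNA per cell cannot be told apart.

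Each sample was hybridised to a 1-colour array. Levels are log2 intensities relative to the array's own 75th percentile, so 0 is that percentile, and negative levels are dimmer spots. Every ± is an SD with n = 3, and differences are propolis minus vehicle. The 75th percentile of intensity ran from 459.4 to 729.0, with 61.1% to 66.7% of 59305 spots well above background. Slide 2 carried vehicle 3 and propolis 3, and slide 1 the other 4 arrays. Markers of stromal progenitors (list means of 5.46 to 5.75) and macrophages (3.50 to 3.88) were high on every array. No probe was matched for the macrophage marker Cd68, and the other 9 macrophage markers stood above background on every array. Pancreatic acinar markers averaged 4.73 in vehicle 2 against -4.34 to -2.90 on the other arrays, and intestinal epithelial markers averaged 4.36 in vehicle 3 against -4.38 to -0.78. B cell markers averaged 0.64 in vehicle 2 and -1.27 in vehicle 1, against -3.84 to -2.57 on the other 4. Dendritic cell markers averaged -0.02 to 0.41 in vehicle and -0.97 to -0.33 in propolis, without overlap, and one of them, the integrin gene Itgax, passed the test (difference -2.18, limma adjusted p = 0.0405). Which cells of the mixture carry the Itgax signal was not tested. Of the 7 dendritic markers tested 6 had lower means, and the other, the lectin gene Cd209a, was higher by 0.82 (limma adjusted p = 0.203). Mesothelial markers averaged 0.03 to 1.30 in vehicle and 2.06 to 3.01 in propolis, also without overlap, and those that passed were the transcription factor genes Bnc1 (difference 2.87, limma adjusted p = 0.0299) and Wt1 (difference 1.98, limma adjusted p = 0.0320).

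**Figure D1:**
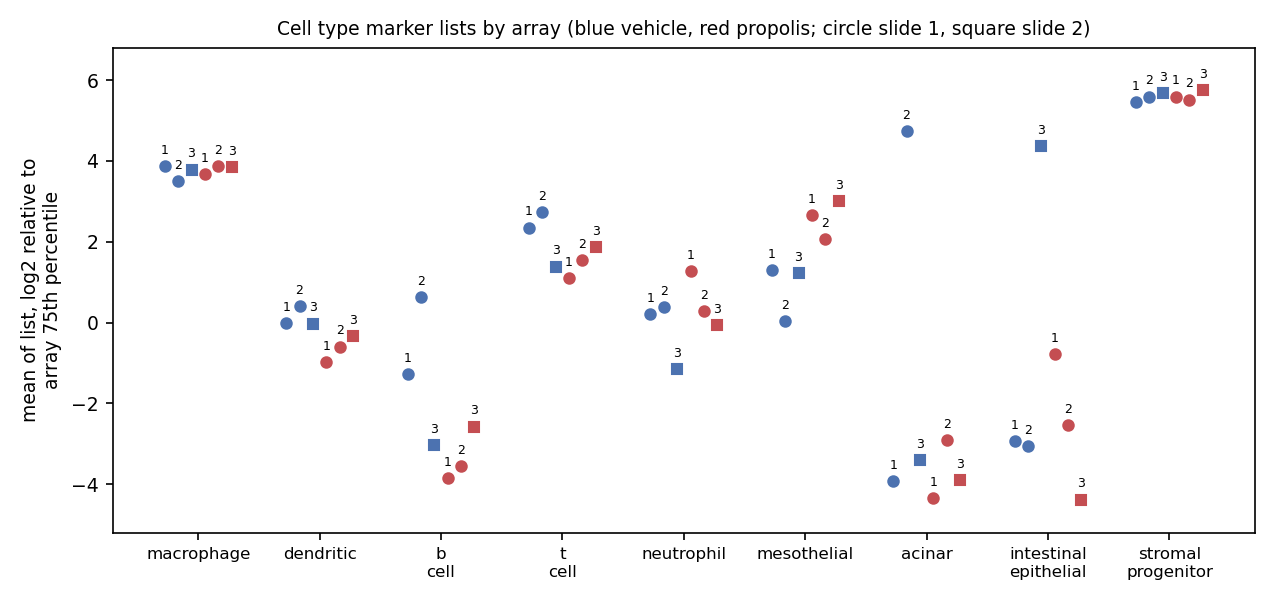
Mean log2 level of each cell type marker list on each array (y axis, relative to the array's 75th percentile), with blue for vehicle, red for propolis, circles for slide 1, squares for slide 2 and digits for the replicate number. Macrophage markers lie between 3.50 and 3.88 on all arrays, while acinar markers stand at 4.73 in vehicle 2 and intestinal epithelial markers at 4.36 in vehicle 3.

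The comparison of propolis with vehicle asked whether these genes differ in the fraction after the treatment. None of the 6 tested members passed limma's test at an adjusted p under 0.05, where 0.834% of all tested genes did, and 1 of the 6, Irf5, had an unadjusted p under 0.05, where 11.7% of all genes did. Nos2 and Irf5 lay lower on every propolis array than on any vehicle array, so 2 of 6 members did not overlap between groups, against 17.4% of all tested genes. Mean levels in propolis were lower for Nos2, Irf5, Cd80, Cd86 and Il27 and higher for Il10. The median difference of the 6 was -0.35, beside -0.00408 over all tested genes.

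**Figure D2:**
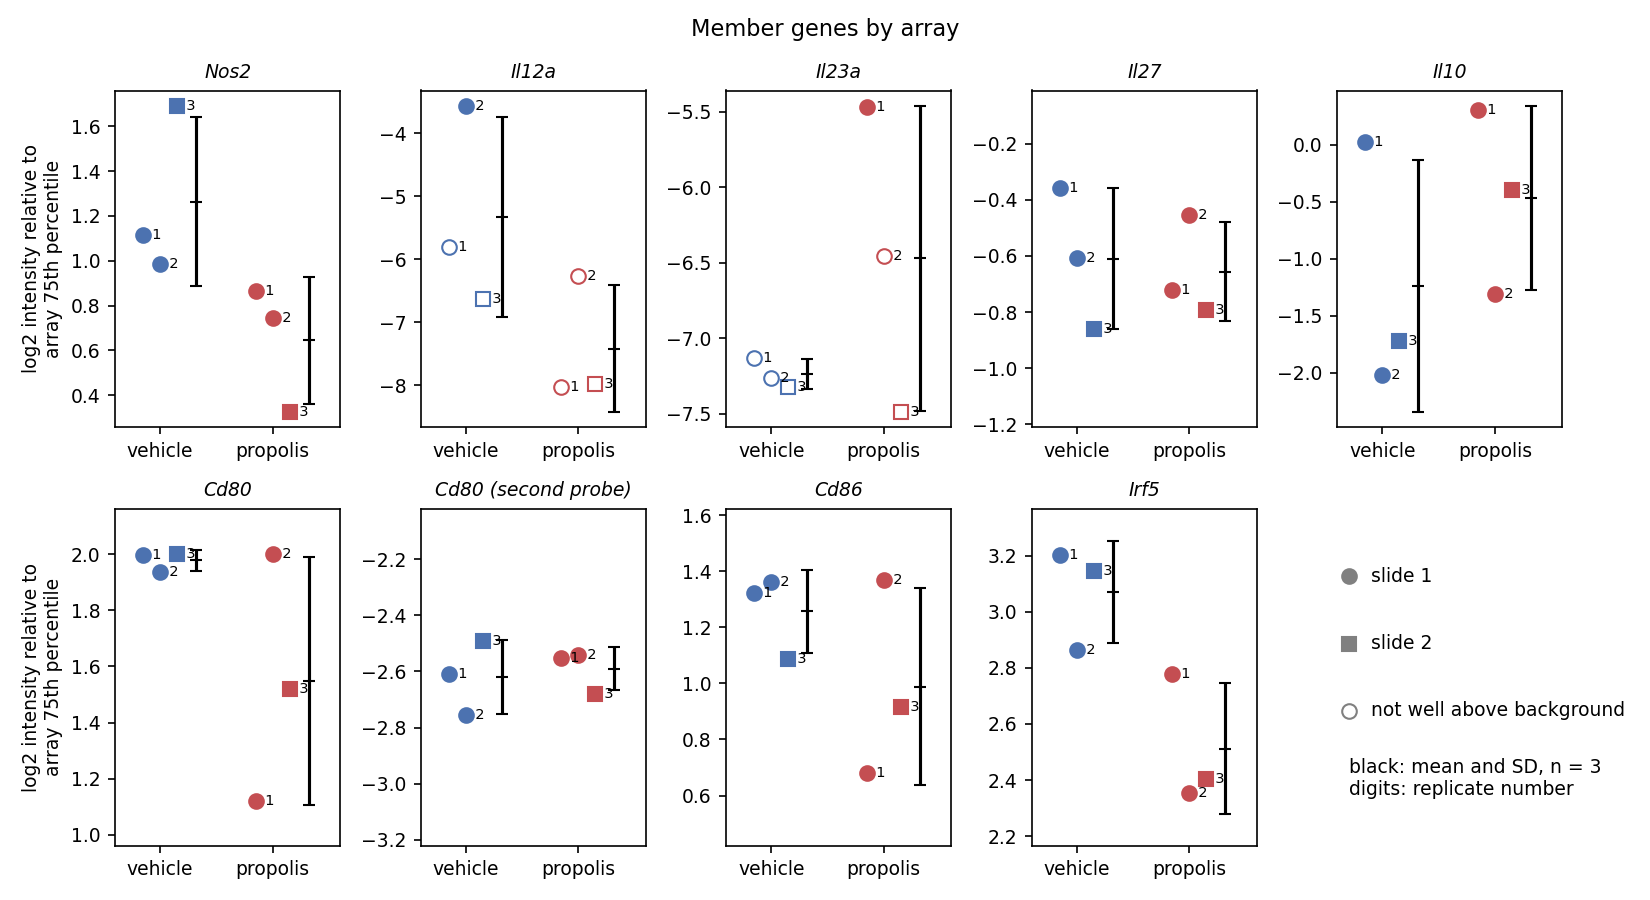
Log2 level of each matched member probe on each array (y axis, relative to the array's 75th percentile), blue for vehicle and red for propolis, with circles for slide 1, squares for slide 2, open symbols for spots not well above background, digits for the replicate number, and the mean and SD (n = 3) in black. The groups separate for Nos2 and Irf5 and overlap for Il27, Il10, Cd86 and both Cd80 probes.

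Nos2 is the gene whose product generates nitric oxide in classically activated macrophages. Its level was 1.12 in vehicle 1, 0.98 in vehicle 2 and 1.69 in vehicle 3, and 0.87, 0.74 and 0.33 in propolis 1, 2 and 3. Vehicle 3 was the highest array and propolis 3 the lowest, and the gap between the groups, from propolis 1 to vehicle 2, was small beside the range within either. The probe (A_55_P2158741) is printed on 2 spots, whose SD on an array was at most 0.114. The mean went from 1.26 ± 0.38 to 0.64 ± 0.28, a difference of -0.62 with a standard error of 0.26 and a 95% interval of -1.25 to 0.01 (limma unadjusted p = 0.0534, adjusted p = 0.439). On slide 1 the difference was -0.24 and on slide 2 it was -1.37. Without vehicle 3, the array with the highest intestinal markers, the difference was -0.40 (limma adjusted p = 0.516). Without propolis 3, the array with the lowest intestinal list mean (-4.38), it was -0.46 (limma adjusted p = 0.404). What part intestinal RNA has in the Nos2 levels was not tested.

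Irf5 had the lowest p of the members. Its level was 3.20, 2.86 and 3.15 in vehicle 1, 2 and 3, and 2.78, 2.35 and 2.40 in propolis 1, 2 and 3. The nearest arrays of the groups were vehicle 2 and propolis 1, and propolis 2 and propolis 3 lay close together below them. The mean went from 3.07 ± 0.18 to 2.51 ± 0.23, a difference of -0.56 with a standard error of 0.20 and a 95% interval of -1.04 to -0.08 (limma unadjusted p = 0.0295, adjusted p = 0.351). It was -0.47 on slide 1 and -0.74 on slide 2. With weights estimated for each array it passed, at -0.73 (limma adjusted p = 0.0311), in a setting that called 12.5% of all genes and gave vehicle 1 a weight of 8.28 and the other arrays 0.292 to 2.20. Over all alternatives its limma adjusted p ran from 0.0311 to 0.9998, and that of Nos2 from 0.126 to 0.9998. The upper ends come from the fit with vehicle 1 as the sole control array, and the highest values with 1 array left out were 0.793 for Irf5 and 0.740 for Nos2.

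The means of the macrophage markers overlapped between the groups, at 3.50 to 3.88 in vehicle and 3.68 to 3.87 in propolis. Taken relative to their mean on the same array, Irf5 was -0.68, -0.63 and -0.64 in the vehicle arrays and -0.90, -1.51 and -1.45 in the propolis arrays. The spread among vehicle arrays was then 0.0246 (SD, n = 3), against 0.18 without that step. Among propolis arrays it was wider, 0.34 against 0.23. The groups again did not overlap. The difference was -0.63 (limma adjusted p = 0.438, against 0.351 without that step). Nos2 relative to the macrophage markers differed by -0.69 (limma adjusted p = 0.480), again without overlap. Relative to the dendritic cell markers whose list mean was lower in propolis although Cd209a was higher, Irf5 differed by 0.20 and Nos2 by 0.14, both with overlapping groups. In that list Ccr7 (difference -2.20, limma adjusted p = 0.260) and Itgax (-2.18) had the lowest differences. The Ccr7 difference was -3.27 on slide 1 but -0.07 on slide 2, while that of Itgax was -2.27 and -2.01. What part dendritic cells have in the Irf5 or Nos2 level was not tested.

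Reference promoters are given for the measured members that the promoter table holds, Irf5 and Cd80, as the 250 bases before the start of each gene in RefSeq on GRCm38.p6. Irf5 lies on the plus strand at chr6:29526375-29526624 and Cd80 on the plus strand at chr16:38458683-38458932. The table also holds Il12a and Il12b, so 4 of the 9 members matched.
Irf5: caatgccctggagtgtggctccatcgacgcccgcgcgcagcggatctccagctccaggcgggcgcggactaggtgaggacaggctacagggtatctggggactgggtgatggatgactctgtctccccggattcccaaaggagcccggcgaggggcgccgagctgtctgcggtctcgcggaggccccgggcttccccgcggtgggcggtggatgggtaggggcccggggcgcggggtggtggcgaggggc
Cd80: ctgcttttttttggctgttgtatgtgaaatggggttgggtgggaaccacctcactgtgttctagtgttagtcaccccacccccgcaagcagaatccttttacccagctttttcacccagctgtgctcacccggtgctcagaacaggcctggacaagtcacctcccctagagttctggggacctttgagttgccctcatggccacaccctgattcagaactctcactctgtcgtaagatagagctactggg
The share of G and C was 72% before Irf5 and 52.8% before Cd80, beside a median of 52.4% over 32851 promoters. Neither window held the interferon gamma activated sequence TTCNNNGAA, the core of the interferon-stimulated response element GAAANNGAAA, TATAAA or the degenerate kappa B motif on either strand, so no base stands in capitals. Of all promoters of this length, 7.02%, 2.98%, 12.4% and 7.25% held these motifs in that order.

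The cytokine members divide into those that were measured and those that were not. Il12a encodes the subunit particular to interleukin-12 and Il23a the one particular to interleukin-23, while Il12b encodes the subunit that both share. Il12a stood well above background on vehicle 2 alone, at -3.57, and its signal on the other 5 arrays ran from -8.02 to -5.81. Vehicle 2 was also the array with the highest list means of dendritic cell (0.41), T cell (2.73), B cell and acinar markers. The part of these cells in the Il12a signal was not tested. Il23a stood well above background on propolis 1 alone, at -5.47, just over the lowest signal so rated on that array, -5.82, and its other signals ran from -7.49 to -6.46. No fold is given for either gene, because most arrays of both groups give only a bound.

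Il27 encodes the cytokine subunit that pairs with the product of Ebi3 to form interleukin-27. Its level was -0.36, -0.61 and -0.86 in vehicle 1, 2 and 3, and -0.72, -0.46 and -0.79 in propolis 1, 2 and 3. The groups lay across each other, with the highest and the lowest array both in vehicle. The mean was -0.61 ± 0.25 in vehicle and -0.66 ± 0.18 in propolis, a difference of -0.05 with a 95% interval of -0.54 to 0.45 (limma adjusted p = 0.957). The interval leaves room for changes of that size either way. Among the genes that work with it, the receptor gene Il27ra was lower on every propolis array, at -0.65, -0.25 and -0.78 in vehicle and -1.67, -2.01 and -0.86 in propolis. That difference of -0.95 did not pass (limma adjusted p = 0.334), and propolis 3 lay close to vehicle 3. Ebi3, chosen for its role after its values were seen, was 2.64, 2.67 and 2.72 in vehicle and 2.05, 2.87 and 2.25 in propolis (limma adjusted p = 0.740).

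Il10 encodes interleukin-10, a cytokine that damps macrophage activation, and it varied most among the tested members. Its level was 0.02, -2.02 and -1.72 in vehicle 1, 2 and 3, and 0.30, -1.31 and -0.40 in propolis 1, 2 and 3. Vehicle 1 and propolis 1 were the highest arrays, and the groups overlapped. The probe (A_51_P430766) is printed on 10 spots per array, whose SD was 0.0584 to 0.147, while the array means spanned 2.32. The spread between samples of one group was therefore far larger than the spread between spots. The mean went from -1.24 ± 1.10 to -0.47 ± 0.81, a difference of 0.77 with a 95% interval of -0.78 to 2.32 (limma adjusted p = 0.731). With 1 array left out it ran from 0.38 to 1.40 and kept its sign, the highest value being without vehicle 1 and the lowest without vehicle 2, with 0.384 without propolis 1. It was -0.49 with vehicle 1 as the sole control array.

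**Figure D3:**
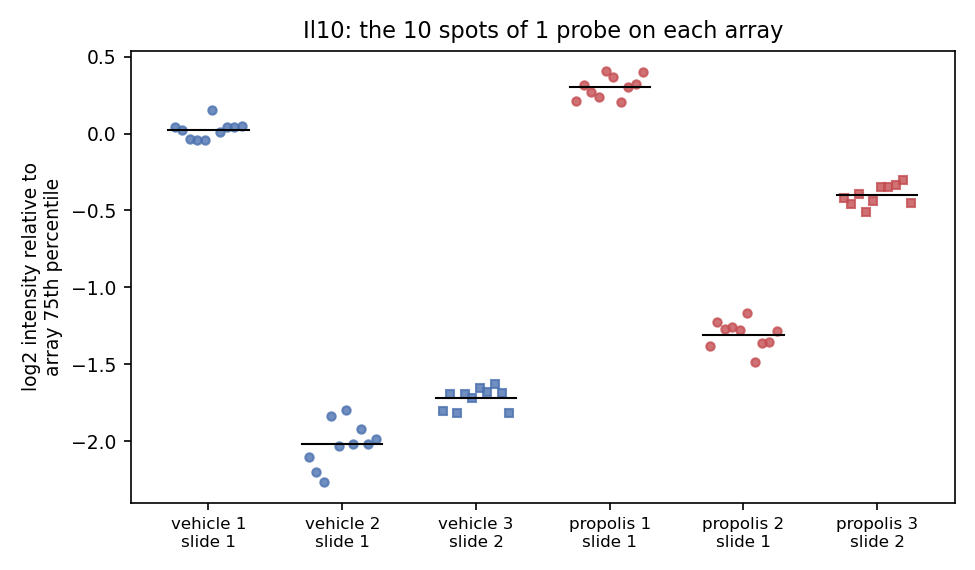
Log2 level of Il10 (y axis, relative to the array's 75th percentile) at each of the 10 spots of its probe on each array (x axis), with blue for vehicle, red for propolis, circles for slide 1, squares for slide 2 and a black line at the array mean. Spots of an array lie close together (SD 0.0584 to 0.147), while the array means run from -2.02 to 0.30.

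Cd80 and Cd86 encode the B7 proteins with which antigen-presenting cells engage CD28 and CTLA-4 on T cells. Cd80 by its brighter probe (A_55_P2001218) was 2.00, 1.94 and 2.00 in vehicle 1, 2 and 3, and 1.12, 2.00 and 1.52 in propolis 1, 2 and 3. The vehicle arrays were nearly alike, propolis 2 matched them, and propolis 1 and propolis 3 were lower. The mean went from 1.98 ± 0.04 to 1.55 ± 0.44, a difference of -0.43 with a 95% interval of -1.04 to 0.17 (limma adjusted p = 0.603). It was -0.22 without propolis 1 and -0.66 without propolis 2. The second Cd80 probe (A_66_P130432) was dimmer and did not follow, at -2.62 ± 0.13 in vehicle and -2.59 ± 0.08 in propolis, with a difference of 0.03 (limma adjusted p = 0.969). Averaged over both probes, Cd80 differed by -0.20.

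Cd86 was 1.32, 1.36 and 1.09 in vehicle 1, 2 and 3, and 0.68, 1.37 and 0.91 in propolis 1, 2 and 3. As for Cd80, propolis 1 was the lowest array and propolis 2 lay among the vehicle arrays. The mean went from 1.26 ± 0.15 to 0.99 ± 0.35, a difference of -0.27 with a 95% interval of -0.82 to 0.28 (limma adjusted p = 0.736). It was -0.12 without propolis 1 and -0.46 without propolis 2. Across the 6 arrays Cd80 and Cd86 correlated at r = 0.916, and Nos2 and Irf5 at r = 0.825, while Il10 correlated with Cd80 at -0.660. Over all 15 pairs of members r ran between these, from -0.660 to 0.916, with 0.667 for Il27 and Cd86 and -0.014 for Il10 and Irf5. These values are descriptions over arrays that also share scaling and cell makeup, and those of Cd80 are for its brighter probe alone.

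**Figure D4:**
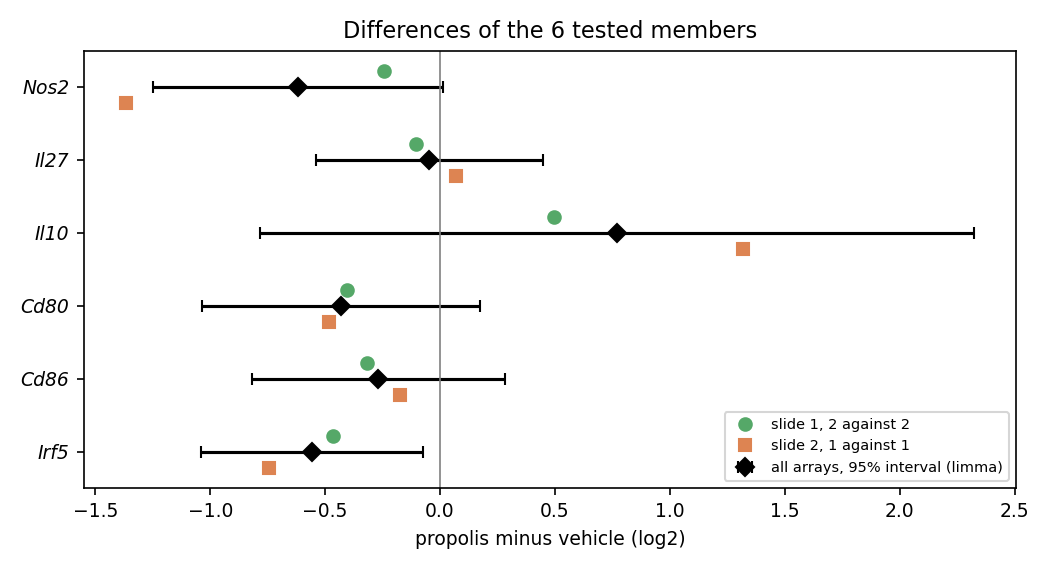
Difference between propolis and vehicle (x axis, log2) for each tested member, with the limma estimate over all arrays and its 95% interval in black, slide 1 as green circles and slide 2 as orange squares. The Il10 interval, -0.78 to 2.32, is the widest, and the Irf5 interval, -1.04 to -0.08, is the one that does not reach 0 before adjustment.

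The genes whose levels ran most alike with a member over the 6 arrays were, for Nos2, Dcaf11 (r = 0.986), Ccdc71l and Enpep. For Irf5 they were Tspan12 (r = 0.993), Slc37a2 and Igf2bp2. For Il10 they were Gcnt2 (r = 0.988), the immediate early gene Egr1 (r = 0.979) and Cd5l, which encodes a secreted macrophage protein (r = 0.978). For Cd80, by its brighter probe, they were Top2a, the DNA topoisomerase gene of dividing cells (r = 0.998), Spaca9 and Tmem229b. For Cd86 they were Aspn (r = 0.998), Creg2 and Adcy7. For Il27 they were Chst13 (r = 0.996), Mcl1 and Zdhhc22. These genes were picked for the highest r over 6 arrays from 15772 tested genes with a symbol, so a high r is not a test. Of those genes, 7 had r over 0.95 with Il10 and 79 with Cd80.

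The genes that work around the members were read from 6 lists, the receptors and signal carriers of these cytokines, arginine and nitric oxide metabolism, B7 receptors and related ligands, other interferon regulatory factors, the interferon gamma and lipopolysaccharide input, and other classical activation genes. Of their 86 genes 82 were tested, and 0 passed limma's test, where 0.834% of all genes did. An unadjusted limma p below 0.05 was found for 16, or 19.5%, beside 11.7% of all genes, 9 of them higher and 7 lower. Groups did not overlap for 21 of the 82, or 25.6%, beside the 17.4% over all genes. Means were higher for 44 and lower for 38, with a median of 0.06.

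Among the 17 genes of cytokine reception and signalling, 10 had higher and 7 lower means, with a median difference of 0.06. After Il27ra, the lowest p belonged to Stat3, which carries the interleukin-10 signal among others, with a mean of 4.04 ± 0.32 in vehicle and 4.59 ± 0.18 in propolis (limma adjusted p = 0.414). The receptor gene Il10ra, chosen for its role after its values were seen, differed by 0.06 (limma adjusted p = 0.945). In arginine and nitric oxide metabolism, 12 genes were tested, 8 with higher and 4 with lower means, at a median of 0.16. Ddah1, whose product degrades endogenous inhibitors of nitric oxide synthases, went from -3.11 ± 1.02 to -1.29 ± 0.74 without overlap (difference 1.82, limma adjusted p = 0.299). The Ddah1 difference was 2.55 on slide 1 and 0.37 on slide 2. Nos3, the endothelial nitric oxide synthase gene, went from 2.87 ± 0.53 to 1.83 ± 0.58 with overlapping groups (difference -1.04, limma adjusted p = 0.375). All 5 endothelial markers tested had lower means as well, with list means of 1.79 to 2.30 in vehicle and 0.77 to 1.98 in propolis, and their part in the Nos3 level was not tested.

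Of the 9 B7 partners tested, 3 had higher and 6 lower means, with a median of -0.45, and groups did not overlap for 5, or 55.6%, beside the 17.4% over all genes. Pdcd1, which encodes the inhibitory T cell receptor PD-1, was -1.76, -1.37 and -1.51 in vehicle and -0.48, -0.65 and -0.75 in propolis (difference 0.92, limma adjusted p = 0.0997). All 3 propolis arrays lay above the vehicle arrays. All 6 T cell markers had lower means, but 0 of them had an unadjusted limma p under 0.05. Their list means overlapped, at 1.39 to 2.73 in vehicle and 1.10 to 1.87 in propolis. On slide 2 the list mean was higher in propolis 3 (1.87) than in vehicle 3 (1.39). What part T cells have in the Pdcd1 level was not tested. Cd276, a B7 family gene, was -1.95, -1.96 and -1.78 in vehicle and -1.17, -1.18 and -0.62 in propolis (difference 0.91, limma adjusted p = 0.152). Among the 8 other interferon regulatory factors, 4 had higher and 4 lower means, at a median of -0.16. Irf4, a factor of lymphocytes and of alternatively activated macrophages, was 0.15, 0.92 and 0.35 in vehicle and -2.06, -0.74 and -0.50 in propolis (difference -1.58, limma adjusted p = 0.232). Irf8, a factor of the monocyte and dendritic cell lineages, differed by -0.41 without overlap (limma adjusted p = 0.452).

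Among the 19 genes of the interferon gamma and lipopolysaccharide input, 11 had higher and 8 lower means, at a median of 0.10. Myd88, the adaptor of Toll-like receptors, went from 2.11 ± 0.25 to 2.75 ± 0.41 (difference 0.65, limma adjusted p = 0.419), and Ly96, the partner of the lipopolysaccharide receptor, differed by 0.41 (limma adjusted p = 0.507), both without overlap. Among the 17 other classical activation genes tested, 8 had higher and 9 lower means, at a median of -0.04, but single genes differed widely in both directions. Ccl3, a macrophage chemokine gene, was 2.84, 2.53 and 2.47 in vehicle and 3.73, 3.45 and 3.57 in propolis (limma adjusted p = 0.0906). Marco, a scavenger receptor gene, was 3.49, 2.41 and 2.66 in vehicle and 0.94, -0.52 and 0.78 in propolis, a difference of -2.45 (limma adjusted p = 0.0932). Ccl3 passed with slide as a random block and both passed with array weights, as did Il27ra, Ddah1, Nos3, Pdcd1 and Cd276, in the setting that called 12.5% of all genes.

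**Figure D5:**
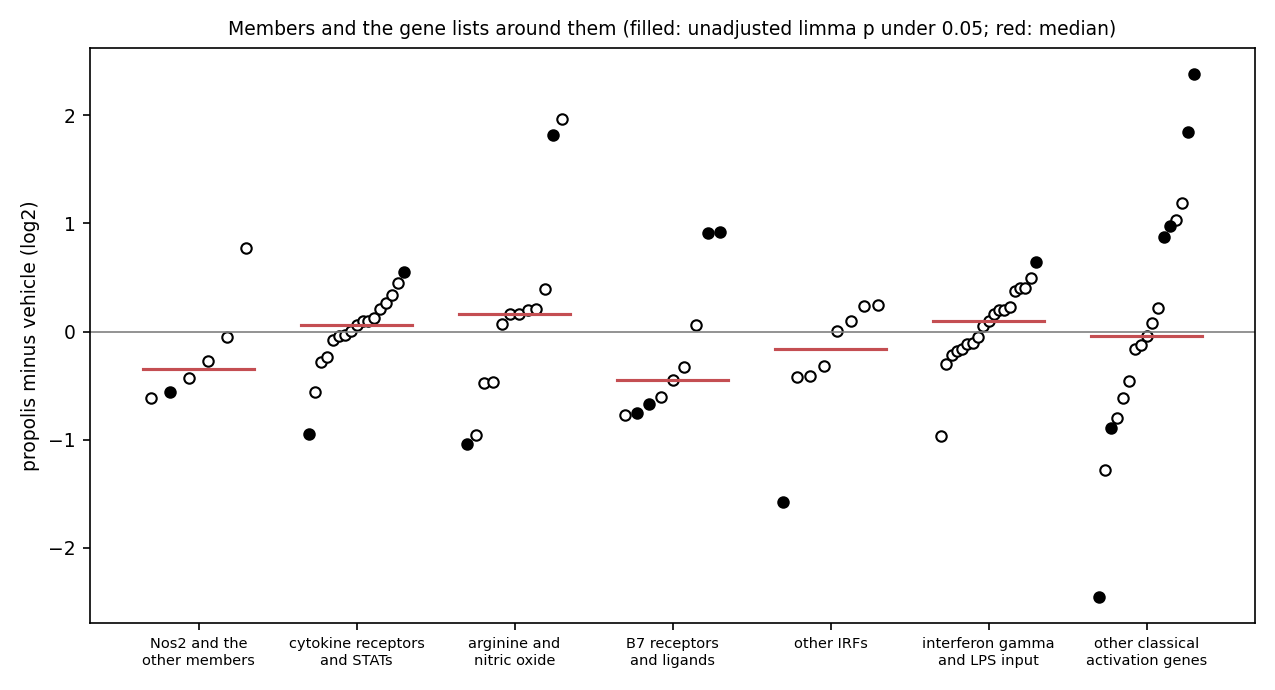
Difference between propolis and vehicle (y axis, log2) for each tested gene of the members and of the 6 lists around them (x axis), with filled circles for an unadjusted limma p under 0.05 and red lines at the medians. List medians lie between -0.45 and 0.16, and the widest scatter is among the other classical activation genes, from -2.45 for Marco to 2.38 for Ptgs2.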

How the data were processed

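Per the file headers, the authors scanned 1-colour Agilent mouse arrays, designed on mm9, and read them with Feature Extraction 10.7.3.1. In the deposited scanner files the processed intensity is background-corrected and linear. A deposited series table gives log2 values whose 75th percentile lies near 0 on each array, with array medians from -3.95 to -3.61, and was used as an alternative. Labelling started from 0.1 µg of RNA, per the labels' protocols.

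Non-uniform spots were dropped, log2 intensities were averaged over the spots of a probe, and the 75th percentile over all non-control probes was subtracted. A probe entered if well above background on at least 3 of 6 arrays, and each gene was represented by its brightest entering probe. Marker list means instead took the brightest probe of each matched gene, without that filter. The dendritic cell, B cell and acinar means therefore each include a gene that was too dim to be tested. Symbols came from RefSeq accessions in a GRCm38.p6 table, which named 27235 of 55681 probes. The test was limma's (version 3.58.1, R 4.3.3; lmFit and eBayes, no block), p-values were adjusted by Benjamini and Hochberg's method over every gene tested with 0.05 as the threshold, and the fit was tested on simulated data. An exact permutation test of 3 arrays against 3 cannot go below p = 0.1.

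The members, gene lists and tests were chosen with earlier results of these data known. Besides the members, the text names the 2 genes of lowest p in each list, marker lists by their means, and the 3 genes most correlated with each tested member. Outside that rule it names the markers Itgax, Bnc1 and Wt1, which passed, and Ccr7 and Cd209a for their differences. It also names Ebi3 and Il10ra for their roles, and Ptgs2 as the end of a range. Alternatives covered background correction, scaling, filters, flags, probe rules, the series table, variance models, blocks and arrays left out.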

Additional observations from a re-analysis of the deposited data

How the results depend on the processing

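Of 25 alternatives, 2 called no gene at all and say nothing about the members. No member passed in 22 of the other 23, the exception being array weights, where 1 did (Irf5). Differences ran from -0.76 to -0.24 for Nos2, -0.73 to -0.47 for Irf5, -0.66 to -0.18 for Cd80 and -0.46 to -0.10 for Cd86, with no change of sign. The Cd80 range is for its brighter probe or the mean of both probes. Its second probe, tested by itself, differed by 0.03 and lies outside that range. Il10 turned to -0.67 with array weights and to -0.49 without vehicle 2 and vehicle 3 together, and Il27 turned to 0.0793 without vehicle 1 and to 0.0217 without propolis 3, ranging from -0.17 to 0.0793 with 1 array left out. The members' median difference moved beyond its spread without propolis 1 alone (-0.17), within a range of -0.47 to -0.17 with 1 array left out. Genes of the pathway lists called numbered 12 of 82 with array weights, where 12.5% of all genes were called, and 1 with slide as a random block, where 2.01% were.

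Over all genes, where 215 were called (186 higher), 106 were called with no filter, 3231 with array weights (1674 higher), 518 with slide as a random block, 11 to 94 with 1 array left out, and limma called 0 on slide 1 alone (5856 at an unadjusted p under 0.05) and 0 without vehicle 2 and vehicle 3 together (1362). With the replicate number as a block 73 were called and no member. Il10 then had a limma unadjusted p of 0.0338 (adjusted p = 0.283), against 0.274 unadjusted without the block. Same-numbered arrays deviated from their group means with correlations of 0.0359, 0.291 and 0.135, and differently numbered arrays with -0.310 to 0.206. So few values cannot decide whether the numbers mark a pairing, and the main test used none. The cause of these changes was not tested. Leaving out vehicle 2 and vehicle 3, and scaling to macrophage markers, were added after the data were seen. Normexp used median signals. Il12a and Il23a are limited by signal over background.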
